A study of Sus scrofa with 57 samples.

Results

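The small RNAs described here are the RNA cores of the splicing machinery and of related RNA-protein particles: the spliceosomal RNAs of the major and minor spliceosomes, 7SK, the RNA subunits of RNase P and RNase MRP, and the RNA of the signal recognition particle (SRP). Genes were selected on their annotated names and on a mean FPKM (fragments per kilobase of locus, corrected for the size of the library) of at least 10 over the 11 RNAseq libraries. Of 25285 genes, 1289 had a matching name, and 71 of these reached the mean. A further 131 were above 0 but under the mean, and 1087 were listed at 0 in every library. The level therefore chose the members and is given as a description. The mean was taken over both groups together, but at loci with few fragments it was reached through pigs of a single group. Of the tested U6 members, 8 were at 0 in every lean pig and 2 were at 0 in every obese pig, so that for these 10 the contrast is not separate from the choice. With the values of either group set to 0, 16 of the 70 tested members would fall under the mean, these 10 among them, and counts are also given for the other 54.

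The study compared mature adipocytes of lean and obese pigs from an F2 intercross of Duroc and Göttingen minipigs, by methylated DNA capture, reduced representation bisulfite sequencing (RRBS) and RNAseq. The RNAseq set held retroperitoneal fat from 5 lean males (pig-402, pig-407, pig-413, pig-525 and pig-577) and 5 obese males (pig-433, pig-473, pig-524, pig-529 and pig-572). Pig-572 gave 2 libraries, which were averaged after scaling, so that n = 5 in each group. The second of them has pig-572 in its title but another number in its description, and it was taken by its title. The phenotype was the outcome of breeding and not an applied treatment, and the pigs differed in age at slaughter by several months, so the part of age in any contrast was not tested. Adipocytes had been freed by collagenase digestion and flotation, and the RNA was depleted of ribosomal RNA and sequenced as fragmented total RNA with paired reads, a preparation not designed for RNAs of this length.

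The tissue label was checked against marker genes. Of 13 adipocyte markers, 6 were found under their names (PLIN1, PLIN4, LEP, LIPE, PPARG and CD36), and their summed level, in FPKM divided by the size factor of the library (scaled FPKM), was 1863 to 2351 in lean pigs and 1691 to 2774 in obese pigs, with CD36 the most abundant at 1259.7. The other 7 names were not analysed here. Macrophage and leukocyte markers (13 of 16 found) summed to 8.79 to 23.3 scaled FPKM, led by C1QC at 5.46, and CD163 was listed at 0. Endothelial markers (7 of 9) summed to 1.53 to 13.4, led by PECAM1 at 5.04. Fibroblast and preadipocyte markers (10 of 11) summed to 249 to 772, led by COL3A1 at 394, with DLK1 listed at 0. Erythrocyte markers (4 of 6) summed to 13.3 to 81.2, led by HBB at 31.0. LEP, the gene of the adipocyte hormone leptin, was at 47.9, 18.3, 7.30, 54.7 and 15.7 scaled FPKM in the lean pigs and at 73.4, 136, 154, 109.7 and 118 in the obese pigs. Every obese pig was above every lean pig for LEP, although its adjusted p was 0.0819 (limma).

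As background, U1, U2, U4, U5 and U6 form the cores of the small nuclear ribonucleoproteins (snRNPs) that recognise introns and catalyse their removal, and U11, U12, U4atac and U6atac do the same for the rare minor introns. 7SK holds the transcription elongation factor P-TEFb in an inactive state, RNase P RNA is the catalytic subunit that trims the leader of precursor tRNAs, RNase MRP RNA acts in ribosomal RNA processing, and SRP RNA is the scaffold of the particle that directs ribosomes making secreted and membrane proteins to the endoplasmic reticulum. Several, such as U1 and U6, have many gene copies and pseudogenes. U6, U6atac, 7SK, RNase P, RNase MRP and SRP RNAs are made by RNA polymerase III, and the others by RNA polymerase II.

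Families differed widely in how many of their loci were represented. U6 supplied 37 members out of 937 matching genes, against 7 of 61 for U1, 3 of 31 for U2, 1 of 20 for U4 and 4 of 12 for U5. The minor spliceosome supplied 1 of 3 U12 genes, the 1 U4atac gene and 1 of 23 U6atac genes, and none of the 4 U11 genes reached the mean. Among the other particles, 4 of 148 7SK genes, 1 of 5 RNase P genes, the 1 RNase MRP gene and 3 of 17 SRP genes were members. The names U3 (6 of 22) and U8 (1 of 4) were also selected, although these RNAs are box C/D small nucleolar RNAs (snoRNAs) that act on ribosomal RNA, and they are described apart.

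The most abundant loci of the 7SK and SRP families may not be among the values. A 7SK gene (ENSSSCG00000019556, chromosome 7, 134400749 to 134401079) was without an estimate in 10 of 11 libraries and had 116030.0 FPKM in the second library of pig-572, which placed it among the members with no comparison possible. SRP genes on chromosome 1 (199694422 to 199694718, 200006512 to 200006808 and 200101914 to 200102210), 3 in number, had no estimate in any of the 11 libraries. Cufflinks marks a locus this way when it holds more fragments than the program will process, and lists it at 0, so that these 0 values are not low levels. The other 70 members had an estimate in every library, and all 70 passed the filter of a mean scaled FPKM of at least 1 and were tested.

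FPKM was a poor guide to the evidence behind a short locus. The bounds that cufflinks gives around each FPKM correspond to a number of fragments, and this number showed what 1 fragment was worth. On a 107-base U6 locus 1 fragment gave 62.9 to 106 FPKM (median 88.0 over 11 libraries), and on the 328-base RNase P locus 0.110 to 0.154 FPKM. Within a library the former was 571 to 719.7 times the latter. A mean of 10 FPKM thus stood for 0.0940 to 0.159 fragments a library on U6, but for 64.9 to 90.7 on RNase P. SRP held 47.0% of the fragments of the tested members and 30.3% of their summed FPKM, RNase P 27.8% and 14.0%, and U3 16.5% and 30.9%. U6 held 0.0271% of the fragments but 9.45% of the summed FPKM. Levels are therefore not compared between families below.

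**Figure D1:**
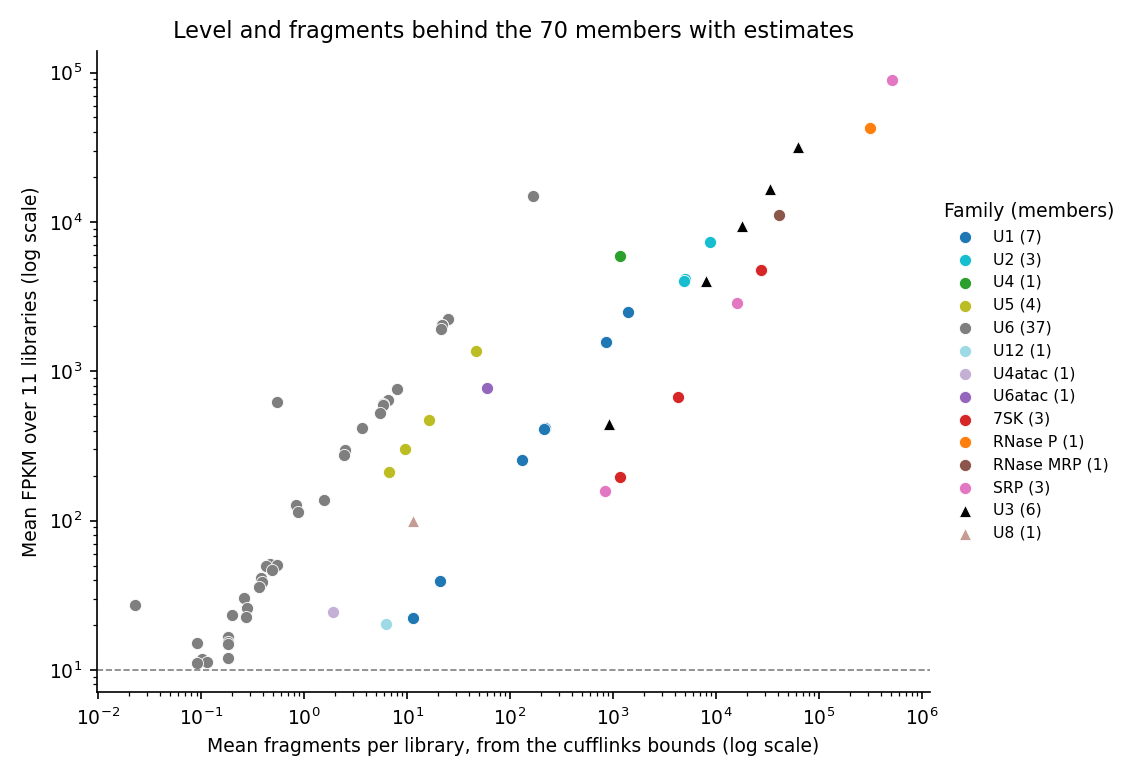
Mean FPKM over 11 libraries (vertical, log scale) against the mean number of fragments per library taken from the cufflinks bounds (horizontal, log scale) for the 70 members with estimates, coloured by family; triangles are the U3 and U8 snoRNAs and the dashed line is the mean of 10 FPKM that selected members. U6 loci lie far to the left of RNase P and SRP at the same FPKM, and some members rest on less than 1 fragment a library.

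The threshold itself fell among single fragments. Just inside it were U6 genes with a mean of 11.1 FPKM (ENSSSCG00000020286, chromosome X), 11.2 (ENSSSCG00000018295, chromosome 5) and 11.9 (ENSSSCG00000022964, chromosome 4). Just outside were U6 genes with 9.62 (ENSSSCG00000018941, chromosome 13), 9.67 (ENSSSCG00000022158, chromosome 1) and 9.998 (ENSSSCG00000018870, chromosome 3). The last 3 each rested on 1 fragment in 1 library, and the first on 1 fragment in lean pig-407.

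The comparison of lean and obese pigs asked whether these RNAs differed in abundance in adipocytes with the phenotype. No member passed an adjusted p of 0.05 in the limma fit across 10170 genes, in which 1 gene did (0.00983%). At an unadjusted p under 0.05 there were 8 of 70 members, 4 higher and 4 lower in obese pigs, or 11.4%, beside 2090 of all genes tested (20.6%, with 1123 higher and 967, or 9.51%, lower in obese pigs). Among the 54 members that reach the mean with either group set to 0, limma called none, and 5 had an unadjusted p under 0.05, 1 higher and 4 lower (9.26%). The lean and obese pigs did not overlap for 1 member, which was lower in obese pigs, beside 421 of all genes (4.14%, with 1.69% lower). These counts depended on the setting and on single pigs. Of the same 54 members, unadjusted p under 0.05 was reached by 12 (11 lower) with FPKM as deposited, or 22.2% beside 13.6% of all genes, and by 9 (3 lower) with size factors from loci under 400 bases, or 16.7% beside 19.4%. Without pig-402 it was reached by 13 of them (12 lower), or 24.1% beside 26.2% of all genes, and without pig-407 by 12 (10 lower), or 22.2% beside 21.1%. Without pig-402, 4 of the 54 did not overlap, or 7.41% beside 10.1% of all genes. With size factors from loci under 400 bases, 2 of the 54 did not overlap, or 3.70% beside 1.67%.

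The members were lower in obese pigs more often than not, in 45 of 70, with a median log2 difference of −0.28 beside 0.01 over all genes. For the 54 members that reach the mean with either group set to 0 it was −0.35, with 39 lower. The 33 members of other families had a median of −0.51, with 27 lower and 6 higher, while the 37 U6 members had a median of 0.02, with 18 lower and 19 higher, or −0.04 with 14 of 23 lower among those 54. The 34 members with a mean of at least 10 fragments a library had a median of −0.35, with 27 lower. Pairs of U3, U1 and U2 loci had values within a median of 0.0153%, 0.929% and 1.78% of each other. The counts of loci are therefore not counts of separate signals. The balance of lower and higher members depended on the scaling. With size factors from loci under 400 bases alone, the median of all genes moved to 0.31, that of the members to 0.10 with 30 of 70 lower, or −0.20 relative to all genes. That scaling moves genes of all lengths in the same direction, and the values given for it on single members include the shift. Members above 0 in every library are also among the 309 short loci behind it. It thus sets the members partly against their own values, and a smaller difference under it cannot be read as a separate check. With quantile normalization the members' median was −0.03, with 38 lower. For the 34 members with at least 10 fragments, short loci gave 0.03 with 16 lower (−0.28 relative to all genes), and quantile normalization −0.11 with 22 lower. For the 33 members of other families these settings gave −0.12 with 19 lower (−0.43 relative to all genes) and −0.24 with 24 lower.

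**Figure D2:**
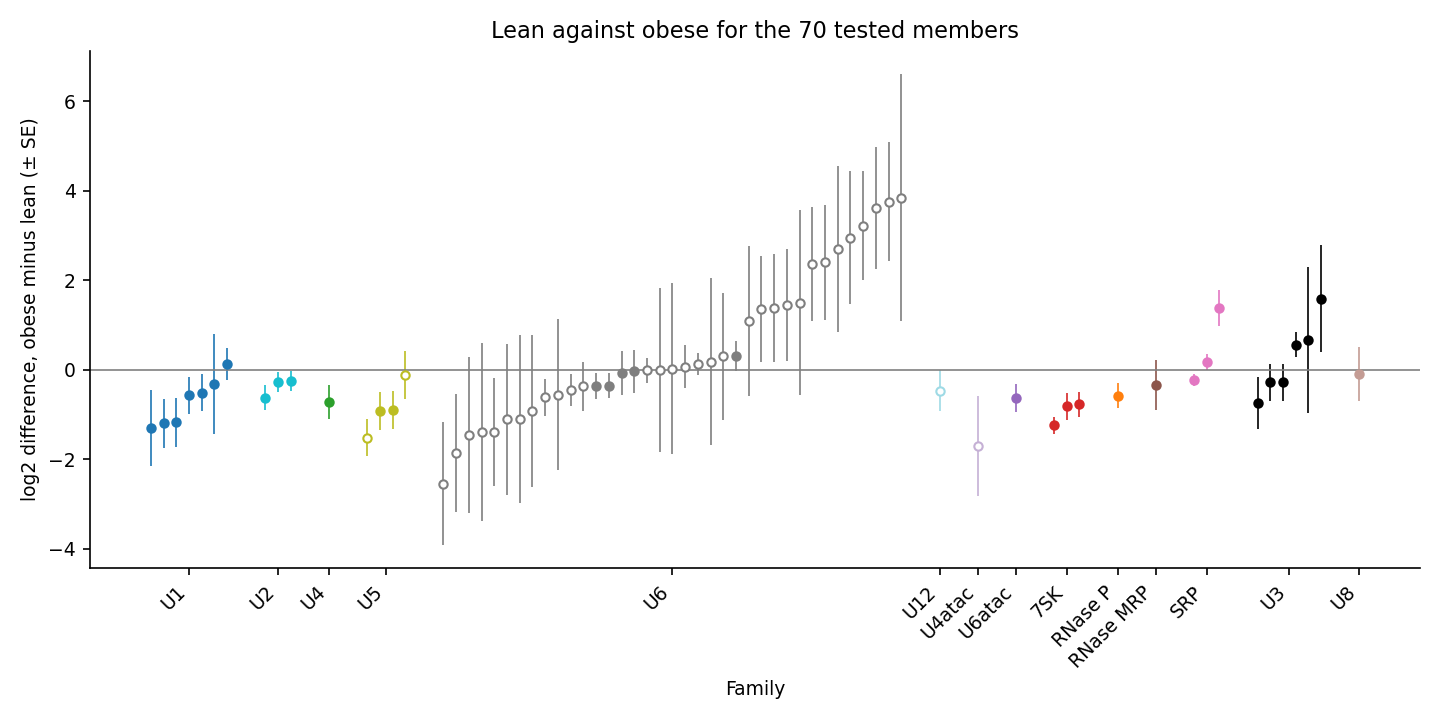
Difference in log2(scaled FPKM + 1), obese minus lean, with its SE from limma, for each of the 70 tested members, grouped by family; filled points have a mean of at least 10 fragments a library and open points fewer (n = 5 pigs per group). U5, U4 and 7SK members lie below 0, 1 SRP member lies well above 0, and the U6 members spread from −2.54 to 3.84 with wide errors; with size factors from short loci 2 of 3 U2 members, 1 of 4 U5, 7 of 37 U6, 2 of 6 U3, 1 of 3 SRP, U8 and RNase MRP turn above 0, while all genes shift by 0.31.

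The leading SRP gene (ENSSSCG00000023048, chromosome 7, 24476038 to 24476332, 295 bases, outside annotated genes of at least 1000 bases) was at 41669, 106380.2, 26567, 30874 and 38809 scaled FPKM in lean pig-402, pig-407, pig-413, pig-525 and pig-577, and at 93406, 79908, 92713, 126782 and 190802 in obese pig-433, pig-473, pig-524, pig-529 and pig-572. Obese pigs lay above lean pigs apart from pig-407, which was higher than 3 of the 5 obese pigs. The lean mean was 48859.9 ± 32718 and the obese mean 116722 ± 44901 (SD, n = 5 each), for a log2 difference of 1.38 (SE 0.397) with an adjusted p of 0.137 in limma and an exact permutation p of 0.0317, two-sided. Without pig-407 the groups did not overlap, at a log2 difference of 1.71 and an adjusted p of 0.0833. Fragments ranged from 145583 to 958745 a library. In bulk RNA of this kind, fewer cells of a type and less RNA per cell cannot be told apart.

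The other SRP genes did not share this contrast. The gene on chromosome 1 (ENSSSCG00000021003, 244532180 to 244532474) was at 2091, 3053, 2641, 2342 and 3069 in lean pigs and 2606, 3312, 2658, 3051 and 3119 in obese pigs, with a log2 difference of 0.17 (SE 0.174). That difference was 0.56 with size factors from short loci, while all genes shift by 0.31, and 0.43 with quantile normalization. The gene on chromosome 5 (ENSSSCG00000029693, 90996694 to 90996980) was at 147, 185, 183, 168 and 160.4 in lean pigs and 121, 158, 142, 157 and 142 in obese pigs, a log2 difference of −0.23 (limma adjusted p 0.333, exact permutation p 0.0397) that turned to 0.16 with size factors from short loci. Their ranges overlapped between the groups, except that the chromosome 5 gene had no overlap once pig-402 was left out, and pig-407 did not stand apart in either. The order of the pigs thus differed between SRP genes of similar length and the same name.

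The 3 tested 7SK loci were lower in obese pigs under every scaling tried. The 7SK gene ENSSSCG00000019556, without an estimate in 10 of 11 libraries, could not be compared, so the contrast of 7SK RNA as a whole is not known. Whether the tested copies were read apart was not tested. No locus passed the adjusted threshold in the main fit, and 1, ENSSSCG00000019791, did with size factors from loci of at least 1000 bases. The most abundant tested copy (ENSSSCG00000019239, chromosome 4, 26446704 to 26447002) was at 3206, 4939, 7592, 7080.3 and 8189 in lean pigs and 3241, 5116, 2400.0, 3429.6 and 2995 in obese pigs, a log2 difference of −0.82 (SE 0.302, limma adjusted p 0.189), which was −0.43 with size factors from short loci and −0.56 with quantile normalization. Pig-413, pig-525 and pig-577 were above every obese pig, and pig-402 and pig-407 were within the obese range. The copy on chromosome 2 (ENSSSCG00000019134, 129759020 to 129759329) ranked the pigs of each group in the same order, with 508, 753, 984, 911 and 1118 in lean and 452, 771, 324, 534 and 427 in obese pigs and a log2 difference of −0.78 (limma adjusted p 0.180).

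A less abundant 7SK copy (ENSSSCG00000019791, chromosome 7, 31997223 to 31997523) gave the only member without overlap between the groups. It was at 202, 262, 343, 333 and 262 scaled FPKM in the lean pigs and 101, 158, 104, 129 and 97.6 in the obese pigs. The lowest lean value, of pig-402, was above the highest obese value, of pig-473, and the means were 281 ± 58.2 (SD, n = 5) and 118 ± 25.7 (SD, n = 5). The log2 difference was −1.24 (SE 0.195), with a limma adjusted p of 0.0511, which just missed the threshold of 0.05. The exact permutation p was 0.00794, the smallest that 252 splits of 10 pigs can give, which follows from the lack of overlap. Without pig-402, the adjusted p was 0.0374, and it was 0.0445 to 0.0499 in 3 settings of scaling, library or eBayes form. It was 0.0210 with both libraries of pig-572 as separate replicates, which counts that pig 2 times, and up to 0.199 in the other settings. The copy lies inside KHDRBS2, a gene of an RNA-binding protein, whose own mean was 0.00173 FPKM. Over the 3 tested copies, the summed level was 3916, 5954, 8918, 8325 and 9569.7 in lean pigs and 3794, 6045, 2827, 4093 and 3519 in obese pigs, with 84.6% from the leading copy.

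**Figure D3:**
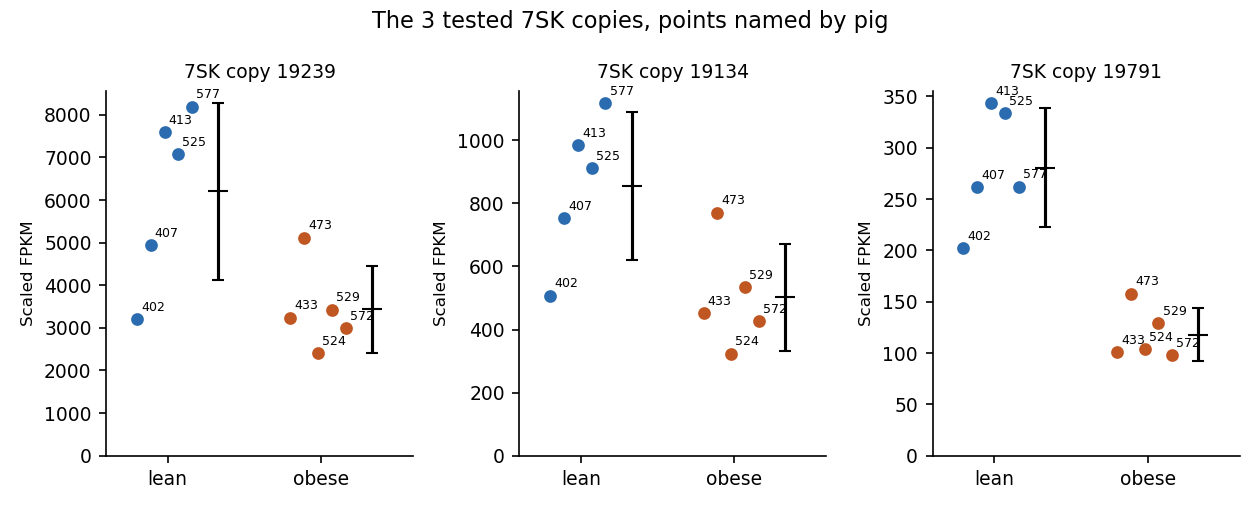
Scaled FPKM (vertical, linear axis from 0) of the 3 tested 7SK copies in each pig, named by its number, with the mean and SD of each group at the right (n = 5); panels are headed by the last 5 digits of the gene identifier. Lean and obese pigs overlap for the copies on chromosomes 4 and 2, while for the copy inside KHDRBS2 on chromosome 7 the lean pigs lie between 202 and 343 and the obese pigs between 97.6 and 158.

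RNase P RNA (ENSSSCG00000020439, chromosome 7, 83579873 to 83580200) was at 30808, 52338, 56542, 50311 and 69494 in lean pigs and 35626, 47861, 22256, 35114 and 31257 in obese pigs. Lean pigs were higher on average but overlapped with obese pigs through pig-402, and the means were 51899 ± 13953 and 34423 ± 9227 (SD, n = 5 each). The log2 difference was −0.59 (SE 0.280), with an adjusted p of 0.261 in limma. The related RNase MRP RNA (ENSSSCG00000018700, chromosome 1, 264105054 to 264105311) was at 2575, 11938, 16141, 16466 and 19729.9 in lean pigs and 13909, 13529.7, 4255, 9005 and 6795 in obese pigs. Pig-402 was the lowest of all 10 pigs for RNase MRP, pig-524 the next, and the groups overlapped, with a log2 difference of −0.34 (SE 0.564) that became 0.04 with size factors from short loci (−0.26 relative to all genes) and 0.04 with quantile normalization, and was −0.87 to −0.09 over leaving out single pigs. RNase P RNA kept its direction in each setting, between −0.76 and −0.15.

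In the major spliceosome, U1, which recognises the start of the intron, had copies that set single pigs apart. The leading U1 gene (ENSSSCG00000026623, chromosome 11, 75591889 to 75592052) was at 1682, 2452, 2729, 1594 and 3199 in lean pigs and 5778, 2015, 1547, 2542 and 2006 in obese pigs. Obese pig-433 was higher than every other pig, and without it the log2 difference turned from 0.14 to −0.17. With all pigs it was 0.52 with size factors from short loci, while all genes shift by 0.31, and 0.26 with quantile normalization. The other 6 U1 members were lower in obese pigs, with log2 differences of −1.30 to −0.32, none with an unadjusted p under 0.05. The member at −0.32 would fall under the mean of 10 FPKM with the values of 1 group set to 0. A U1 copy on chromosome 4 (ENSSSCG00000025950, 110308451 to 110308614), chosen after its values were seen, was at 1401 in lean pig-577 and at 17.8 to 299 in the other 9 pigs. A pair of U1 genes on chromosome 7 (ENSSSCG00000030181 and ENSSSCG00000024478, 11563 bases apart) had values within a median of 0.929% of each other over the libraries, and whether they were read apart was not tested.

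U2, which pairs with the branch point, was led by a gene on chromosome 2 (ENSSSCG00000027405, 8235180 to 8235370) at 6025, 6669, 10277, 12273 and 9352 in lean pigs and 6345, 7821, 3498, 6610.3 and 4719 in obese pigs. The ranges overlapped, and the log2 difference was −0.63 (SE 0.284) with a limma adjusted p of 0.244. The other U2 members are a near-equal pair on chromosome 12 (ENSSSCG00000028618 and ENSSSCG00000028281, within a median of 1.78%), with log2 differences of −0.27 and −0.25. The median over the U2 family, −0.27, became 0.11 with size factors from short loci (−0.19 relative to all genes) and 0.02 with quantile normalization, while the leading gene was at −0.24 and −0.17 in these.

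U4, which is bound to U6 until the spliceosome is activated, had 1 member (ENSSSCG00000028966, chromosome 14, 42856402 to 42856542) at 3508, 4826, 8037, 8975 and 13529 in lean pigs and 6164, 5851, 2987, 4207 and 2990.3 in obese pigs. Pig-577 was highest and pig-524 and pig-572 were lowest, with overlap between the groups and a log2 difference of −0.72 (SE 0.384, limma adjusted p 0.307), which was −0.33 with size factors from short loci and −0.36 with quantile normalization. U5, which holds the exons for joining, was led by a gene on chromosome 1 (ENSSSCG00000018672, 180909303 to 180909419) at 898, 1050.4, 2558, 2357 and 2205 in lean pigs and 1402, 1211, 375, 1089 and 798 in obese pigs, a log2 difference of −0.90 (limma adjusted p 0.255), or −0.51 and −0.64 in the same settings. Again pig-413, pig-525 and pig-577 were above every obese pig and pig-402 and pig-407 were not. A U5 gene on chromosome 6 (ENSSSCG00000022211, 153989527 to 153989642) was at 218, 432, 656, 476 and 503.4 in lean pigs and 229, 273, 175, 99.95499 and 66.7 in obese pigs, a log2 difference of −1.53 (SE 0.414, limma adjusted p 0.124, exact permutation p 0.0238). Only pig-402 among the lean pigs was within the obese range, on a mean of 9.61 fragments a library. With size factors from short loci the groups did not overlap for this gene. The value of pig-572 averages 133 in its first library and 0 in its second, and with the second alone the log2 difference was −2.74.

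**Figure D4:**
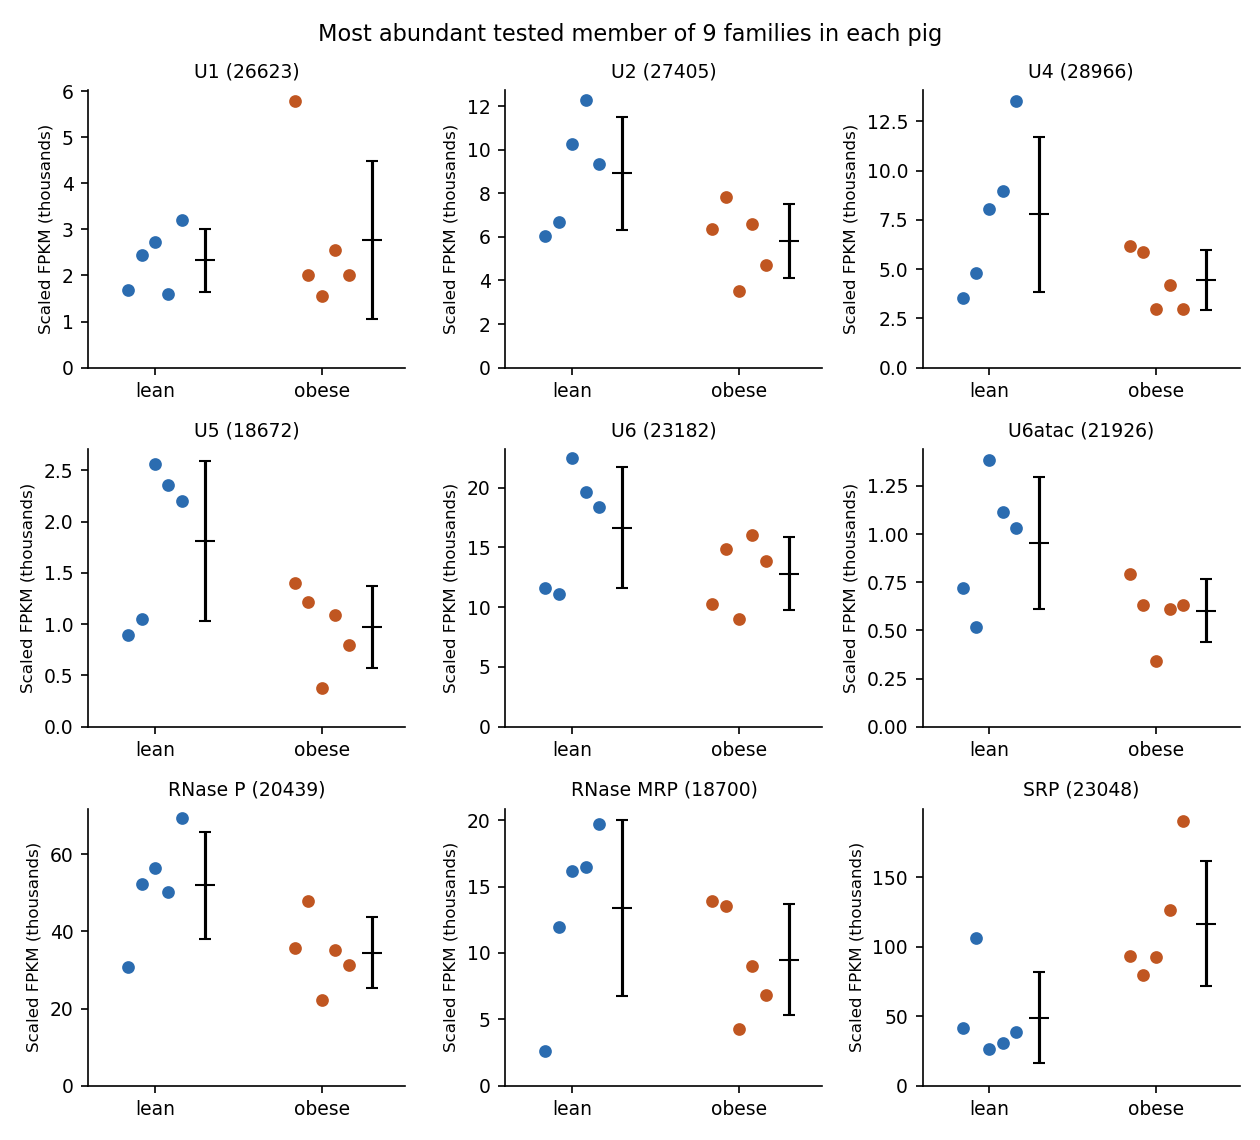
Scaled FPKM, divided by 1000 (vertical, linear axes from 0) of the most abundant tested member of 9 families in each of 5 lean (blue) and 5 obese (orange) pigs, in the order of their numbers, with mean and SD beside each group; panels carry the last 5 digits of the gene identifier. For U4, U5, U6atac and RNase P the highest lean pigs exceed the obese pigs and pig-402 does not, while for SRP the obese pigs lie at 79908 or more and all lean pigs but pig-407 at 41669 or less.

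U6, the RNA at the catalytic centre of the spliceosome, had 1 locus with many more fragments than the others. That gene (ENSSSCG00000023182, chromosome 6, 80016571 to 80016677), inside MECR, a gene of mitochondrial fatty acid synthesis, rested on 117 to 218 fragments a library and was at 11608, 11086, 22515, 19609.8 and 18341 in lean pigs and 10223, 14897, 9036, 16073 and 13821 in obese pigs. The groups overlapped, and the log2 difference of −0.35 (SE 0.274) became 0.03 with size factors from short loci. Of the 37 U6 members, 10 had fewer than 2.5 fragments over all 11 libraries together, 13 had up to 11, 9 had up to 110 and 5 had more. Only 11 were above 0 in every library, and 4 were above 0 in 1 library. An 85-base U6 gene (ENSSSCG00000020018, chromosome 9), chosen after its values were seen, reached a mean of 625 FPKM from 6 fragments in 6 libraries, since 1 fragment there was worth 952 to 1312 FPKM.

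The U6 members with the lowest p rested on as few fragments. The U6 gene on chromosome 5 (ENSSSCG00000030558, 33601092 to 33601198) was at 0 in all lean pigs and at 81.1, 85.1, 63.2, 0 and 0 in the obese pigs, from 3 fragments in all. The gene on chromosome X inside MAGED1 (ENSSSCG00000023120, 50664291 to 50664397) was at 0 in all lean pigs and at 81.1, 170.3, 0, 18.7 and 0 in the obese pigs, and the gene on chromosome 7 (ENSSSCG00000024192, 75710540 to 75710646) at 0 and at 0, 85.1, 63.2, 11.7 and 0. These are 3 of the 4 members higher in obese pigs at an unadjusted p under 0.05. They reached the mean of 10 FPKM through obese pigs alone, on 2 or 3 fragments, so their p values are not given as tests of the contrast. No fold is given, because the lean values are listed at 0.

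The minor spliceosome was thinly covered. U6atac (ENSSSCG00000021926, chromosome 1, 307553518 to 307553643) was at 718, 518, 1387, 1114 and 1033 in lean pigs and 790.5, 633, 342, 613 and 634 in obese pigs, with pig-413, pig-525 and pig-577 above all obese pigs, a log2 difference of −0.63 (SE 0.305, limma adjusted p 0.265; −0.25 with size factors from short loci) and a mean of 59.2 fragments a library. U12 (ENSSSCG00000019768, chromosome 5, 3631946 to 3632095) was at 18.8, 5.63, 23.6, 30.4 and 48.2 in lean pigs and 12.3, 12.99, 11.1, 21.8 and 18.2 in obese pigs. U4atac (ENSSSCG00000026416, chromosome 15, 34820149 to 34820274, inside ENSSSCG00000027791) was at 33.2, 22.5, 14.2, 52.7 and 16.7 in lean pigs and 24.3, 0, 0, 57.0 and 20.3 in obese pigs, on a mean of 1.91 fragments a library. For U12 and U4atac the groups overlapped, with log2 differences of −0.47 (SE 0.452) and −1.71 (SE 1.12). U12 is among the 16 members that would fall under the mean of 10 FPKM with the values of 1 group set to 0. Its contrast is therefore not fully separate from the choice of members. Leaving out single pigs gave −0.90 to −0.18 for U12 and −2.42 to −0.96 for U4atac, and the latter ran from −3.01 to −0.61 with pseudocounts of 0.1 and 10. With size factors from short loci U12 was at −0.10 (−0.41 relative to all genes).

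The U3 and U8 snoRNAs that share the naming pattern lay mostly in a cluster. Of the 6 U3 members, 5 were on chromosome 12 between 35722003 and 35915841, and 1 was on chromosome 11, 1832 bases from the leading U1 gene. The leading U3 gene (ENSSSCG00000025304, chromosome 12, 35847557 to 35847771) was at 12021, 24974, 45588, 43126 and 55641 in lean pigs and 26889.6, 37469, 17236, 25331 and 28444 in obese pigs, and its log2 difference of −0.28 (SE 0.413) became 0.11 with size factors from short loci and was −0.63 to −0.08 over leaving out single pigs. The chromosome 11 gene (ENSSSCG00000019898) was within 0.0250% of it in every library. U3 inside TEX14 (ENSSSCG00000024852, chromosome 12, 35915627 to 35915841) was at 2129, 4842, 3452, 3503 and 2339 in lean pigs and 6418, 4639, 3112, 5309 and 4044 in obese pigs, a log2 difference of 0.55 (SE 0.279, limma adjusted p 0.283). For this copy the difference was 0.94 with size factors from short loci, while all genes shift by 0.31, and 0.98 with quantile normalization. U8 (ENSSSCG00000023729, chromosome 12, 55869748 to 55869883, inside TMEM107) was at 36.0, 33.9, 234, 121 and 92.4 and 128, 113, 31.6, 36.3 and 138, with no separation of the groups and a log2 difference of −0.10, which turned to 0.28 with size factors from short loci (−0.03 relative to all genes).

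Single U3 copies, chosen after their values were seen, were nearly present or absent by pig. The copy at 35725695 to 35725909 (ENSSSCG00000026740) was at 1321 in lean pig-402 and 2881 in obese pig-473, and at 5.23 to 38.6 in the other 8 pigs. The copy at 35845117 to 35845331 (ENSSSCG00000023855) was at 166 in lean pig-577 and 6218 to 28002 in the other 9. The contrasts set single animals apart within both groups.

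Across pigs many members had high or low values together. For the 34 members with at least 10 fragments a library, the median deviation from the member's mean over pigs, on the log2 scale, was −0.45, −0.19, 0.52, 0.58 and 0.74 in lean pig-402, pig-407, pig-413, pig-525 and pig-577. It was −0.07, 0.24, −0.88, −0.19 and −0.21 in obese pig-433, pig-473, pig-524, pig-529 and pig-572. Pig-577 was highest for 13 of the 34 and pig-524 was lowest for 21. So the lean group held both the 3 highest pigs and, in pig-402, 1 with nearly the lowest values, and without pig-402 the median log2 difference over all members was −0.52. The 2 libraries of pig-572 differed by a median of 0.14 log2 units over these members, beside 0.081 over all genes.

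**Figure D5:**
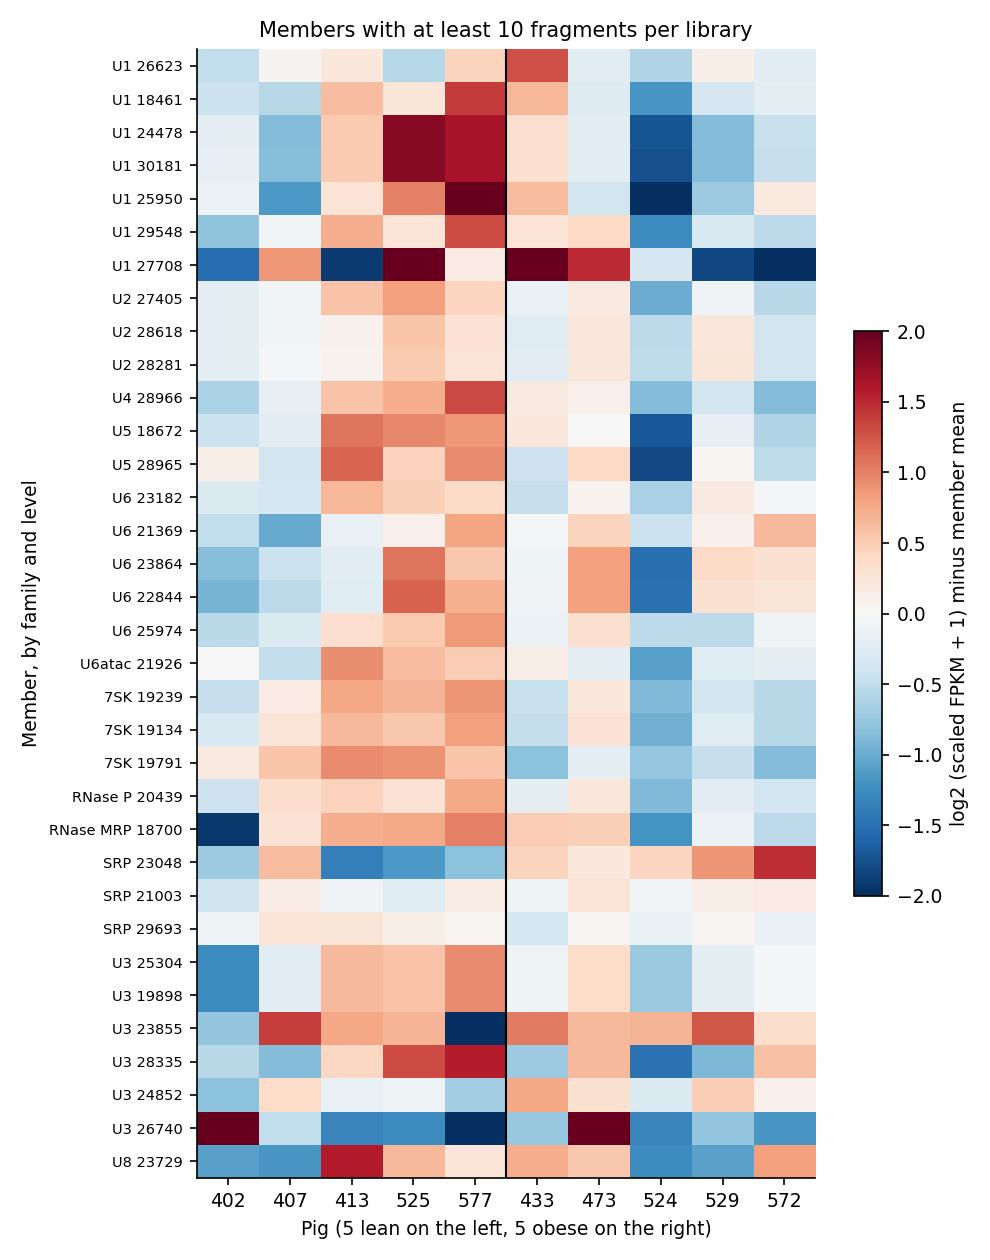
Deviation of log2(scaled FPKM + 1) from the member's mean over pigs (colour, ending at 2 units in either direction) for the 34 members with a mean of at least 10 fragments a library, by family, in 5 lean (left) and 5 obese (right) pigs; names carry the last 5 digits of the gene identifier. Pig-413, pig-525 and pig-577 are red and pig-524 is blue across most families, the leading SRP gene runs the other way, and single U1 and U3 copies stand apart in single pigs.

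Size factors from short loci and the levels of other small RNAs also differed between pigs. Size factors taken from loci under 400 bases were 0.783, 0.982, 1.45, 1.33 and 1.52 times those of all genes in the lean pigs, and 0.957, 1.11, 0.651, 0.973 and 0.878 times in the obese pigs. The 309 loci behind these size factors include members above 0 in every library. These ratios therefore partly repeat the members' own values. Whether the remaining short loci differed in the same way was not tested. Box H/ACA snoRNAs had a median log2 difference of −0.57, with 84 of 94 lower. An unadjusted p under 0.05 was reached by 17 (18.1%), all lower, beside 20.6% of all genes in either direction and 9.51% lower. Their median was −0.19 with size factors from short loci (−0.50 relative to all genes). Box C/D snoRNAs (42, U3 and U8 names not among them) had −0.34, with 27 lower, 1 at an unadjusted p under 0.05, which was higher in obese pigs, and a median of 0.05 with size factors from short loci (−0.26 relative to all genes). The 2 microRNA loci tested were both higher in obese pigs, with a median of 1.13, and limma called neither (0 at an unadjusted p under 0.05). RNA integrity was not analysed here, and the part of RNA recovery or library preparation in the pattern was not tested.

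Genes of the early response to tissue dissociation (16 of 22 found, 14 tested) were high and low in some of the same pigs. Their summed level was 1188, 764, 2329, 2173 and 2441 scaled FPKM in the lean pigs and 1399.6, 1599, 665, 960.2 and 509 in the obese pigs, highest in pig-413, pig-525 and pig-577 and lowest in pig-572 and pig-524. FOS, the most abundant at 307, was at 291, 187, 624, 422 and 624 in lean and 276, 277, 96.2, 205 and 62.0 in obese pigs. None of the 14 passed the adjusted threshold in limma, and their median log2 difference was −1.01. Of these 14, 7 had an unadjusted p under 0.05 in limma, 6 of them lower and HSPB1 higher in obese pigs. The share over all genes was smaller, at 20.6% in either direction and 9.51% lower in obese pigs. The macrophage and leukocyte markers (4 tested, median −0.11, or 0.14 with size factors from short loci, −0.16 relative to all genes), the endothelial marker tested (PECAM1, 0.13), the erythrocyte marker tested (HBB, −0.38) and the adipocyte markers (6 tested, median 0.12) had no call in limma, with 0, 0, 0 and 1 at an unadjusted p under 0.05. All 7 fibroblast markers tested were lower in obese pigs (median −0.52), though 3 of 7 turned higher with size factors from short loci (median −0.45 relative to all genes) and 1 of 7 with quantile normalization, with 0 called and 1, DPT, at an unadjusted p under 0.05. The part of these cells and of the cell isolation in the members' levels was not tested.

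Genes of proteins that bind, make or process these RNAs were compared in the same fit. Of 145 listed genes, 130 were found and 120 tested, and none passed the adjusted threshold in limma, with 22 at an unadjusted p under 0.05, 11 in each direction (18.3% beside 20.6% of all genes). Their median log2 difference was −0.01, and 5 did not overlap between groups (4.14% of all genes did not). Lack of overlap by itself sets the exact permutation p of each at 0.00794, the smallest possible. PRPF3, a U4/U6 snRNP protein, was at 4.23, 3.87, 4.31, 4.45 and 3.496 scaled FPKM in lean and 4.73, 5.59, 6.38, 6.41 and 7.55 in obese pigs, every obese pig above every lean pig, with a log2 difference of 0.48 (limma adjusted p 0.1002). COIL, the scaffold protein of Cajal bodies where snRNPs mature, was at 2.31, 3.39, 3.21, 2.90 and 3.33 in lean and 2.13, 2.195, 2.16, 1.91 and 1.98 in obese pigs, with −0.38 (limma adjusted p 0.106). In COIL every lean pig was the higher, as in the polymerase III factor GTF3C3 with −0.43 (limma adjusted p 0.106), the Sm ring protein SNRPD2 with −0.39 (limma adjusted p 0.132) and the minor spliceosome protein PDCD7 with −0.39 (limma adjusted p 0.173).

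The medians differed between lists. Sm and LSm genes had −0.16 with 11 of 15 lower, and U1 and U2 snRNP genes −0.09 with 8 of 11 lower, both of which turned above 0 with size factors from short loci (0.19 and 0.21, while all genes shift by 0.31). U4/U6 and U5 snRNP genes had −0.04, minor spliceosome genes −0.08, genes of the 7SK particle −0.06 and RNase P and MRP proteins −0.05, which also turned above 0 under that scaling, and SRP and its receptor had 0.02. RNA polymerase III genes had 13 of 16 higher. By particle, an unadjusted p under 0.05 was found for 1 of 11 U1 and U2 snRNP genes (lowest p for SNRNP70, log2 difference 0.48 (limma adjusted p 0.196)), 2 of 15 Sm and LSm genes, 4 of 17 U4/U6 and U5 snRNP genes and 1 of 9 minor spliceosome genes. The snRNA transcription, 3′ processing and assembly list had 9 of 31 (median 0.02) and the RNA polymerase III list 4 of 16 (median 0.08), and no gene of any list was called. For 7SK, 0 of the 7 genes of its particle and of P-TEFb reached an unadjusted p under 0.05 in limma, the lowest being that of the cyclin CCNT1 at −0.13 (limma adjusted p 0.432). The RNase P and MRP proteins had 1 of 7, RPP14 at 0.34 (limma adjusted p 0.223). For SRP, none of 8 protein and receptor genes did in limma, with SRP9 lowest in p at 0.18 (limma adjusted p 0.453). The most abundant SRP RNA gene with an estimate had 1.38, and the other tested SRP RNA genes had 0.17 and −0.23.

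By position, members lay on 15 chromosomes, and 21 of 71 were inside a gene of at least 1000 bases, 17 of them U6. Of the regions deposited from methylated DNA capture, 1 overlapped a member. It spanned 90996701 to 90997700 on chromosome 5 at the least abundant SRP member, with the authors' mean signals of 15.5 in lean and 9.03 in obese pigs. The authors' lean mean takes in pig-411, which the labels call obese. With that member, 9 of 71 had a region within 5000 bases, beside 44 of all 1289 genes with a matching name (6 overlapping), and the nearest region that did not overlap lay 59 bases from the U2 gene ENSSSCG00000028618, with the authors' mean signals of 18.2 in lean and 27.6 in obese pigs. None of 2416 or 610 RRBS regions lay at or within 5000 bases of a member, beside 9 and 2 of the 1289 genes with such a region. These regions had been chosen by the authors for a difference between the groups, so the counts say nothing of methylation at the other loci.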

How the data were processed

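RNAseq had been made from 11 libraries of 10 pigs. The authors trimmed captured DNA reads with Trimmomatic 0.22, cleaned RNA and bisulfite reads with their own tools, aligned RNA reads with STAR 2.3.1 to Sscrofa10.2 and made the deposited FPKM values with cufflinks 2.2.0, and aligned bisulfite reads with Bismark 0.10 on Bowtie2 2.1.0. The deposited captured regions carry a normalized signal as the authors' group means, and the deposited RRBS regions carry a methylated fraction. The authors' comparison columns (fold changes, p-values and q-values) are held in the files and were not used, nor were 2 columns of per-animal values. Nothing was realigned, and no raw reads were used here.

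Of 25337 entries per table, 52 were summed into an entry of the same identifier. FPKM was divided by median-of-ratios size factors over 14563 genes (0.697 to 1.21) and the 2 libraries of pig-572 were averaged. Genes without an estimate in some library, 9 in all, were left out. Differences are on the log2(scaled FPKM + 1) scale (pseudocount 1), from limma 3.58.1 in R 4.3.3 (eBayes with trend, no covariates) over 10170 genes with a mean scaled FPKM of at least 1, p adjusted by Benjamini-Hochberg over all of them, called under 0.05. The script was tested on simulated data. Single members were also tested by exact two-sided permutation of the 10 pigs (252 splits). Fragments per locus were computed from the cufflinks bounds, taken as 2 SD of a count from the value. Tables were made with Python 3.11.15, numpy 2.4.6 and pandas 2.3.3, and figures with matplotlib 3.10.9.

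Named members are the most abundant of each family, the 5 with the lowest p in each direction, those whose groups do not overlap, those past the threshold and the 3 on either side of the mean of 10 FPKM. In each of 9 lists of partner proteins (U1 and U2 snRNP, Sm and LSm, U4/U6 and U5 snRNP, minor spliceosome, snRNA transcription and assembly, 7SK snRNP and P-TEFb, RNase P and MRP, SRP and its receptor, RNA polymerase III) the gene with the lowest p is named. Members and lists were chosen with earlier results of these data known. Alternatives covered scaling, pseudocount, filter, the libraries of pig-572, the eBayes form, the limits of the rule and leaving out each pig.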

Additional observations from a re-analysis of the deposited data

Results flagged for a closer look

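In 57 groups of 5 pigs (each named member and each family sum, by phenotype), 7 held a pig whose gap to its nearest neighbour was more than 0.71 of the group's range. Chance flags about 1 in 20 separate groups of normal values, and 3 of the 7 rest on U6 loci with single fragments. The flags on the U1 and SRP sums repeat those on the leading U1 and SRP genes. The 7 flags are therefore not all separate, and their number is not set against that rate.

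Obese pig-433 was at 5778 scaled FPKM for the U1 gene ENSSSCG00000026623, against 1547 to 2542 in the other obese pigs, and at 9154 for the sum of the U1 members, against 2409 to 4134. Lean pig-407 was at 106380.2 for the SRP gene ENSSSCG00000023048, against 26567 to 41669 in the other lean pigs, and at 109618 for the sum of the SRP members, against 29392 to 43907. For the U6 gene ENSSSCG00000020286, lean pig-407 was at 124 and the other lean pigs at 0. For the U6 gene ENSSSCG00000022964, lean pig-525 was at 30.0 and obese pig-473 at 85.1, with the other pigs of each group at 0.

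A signal in a gene that no comparison used was the 116030.0 FPKM of the 7SK gene ENSSSCG00000019556 in the second library of pig-572, the only library with an estimate. The causes were not tested.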

How the results depend on the processing

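Groups of 5 pigs and loci with few fragments limit every value here. No member was called in limma, and the same 7SK gene, ENSSSCG00000019791, became the 1 member called with size factors from loci of at least 1000 bases (−1.25, adjusted p 0.0499), with the second library of pig-572 alone (−1.23, 0.0445), with both libraries as separate replicates, which counts pig-572 2 times (−1.28, 0.0210), and with robust eBayes (−1.24, 0.0481). Leaving out each pig gave 0 to 1 members called, with 1 only without lean pig-402 (−1.35, 0.0374), and −1.35 to −1.16 for that gene. The partner genes called were 0, and 3 with both libraries as separate replicates, and leaving out each pig gave 0 to 2, with 2 only without pig-402. Over all genes 1 was called, and 15, 16, 155 and 26 in those 4 settings, 5 with size factors from short loci, 3 with quantile normalization, 8 with pseudocount 10, 5 with no filter, 0 with FPKM as deposited, 0 with a mean of at least 10 and 146 without pig-402.

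The members' median of −0.28 turned to 0.10 with size factors from short loci, a scaling that moves the median of all genes to 0.31 and leaves the members at −0.20 relative to it, and was −0.52 to −0.16 over leaving out each pig. Members above 0 in every library are themselves among the loci behind those size factors. With those size factors the U6 gene ENSSSCG00000023182 turned to 0.0312, the U3 gene ENSSSCG00000025304 to 0.11, U8 to 0.28 and RNase MRP to 0.0421, and with quantile normalization RNase MRP turned to 0.0438. U8 turned to 0.0295 with both libraries as separate replicates. Leaving out each pig gave −0.40 to 0.29 for U8, −0.17 to 0.30 for the U1 gene ENSSSCG00000026623 (−0.17 without pig-433) and −0.99 to 1.29 for the U6 gene ENSSSCG00000022964. The cause was not tested.

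The other 558 values of named members and 78 of the counts and medians kept their direction and their side of the threshold. Raising or lowering the mean of the rule, leaving out U3 and U8 and leaving out members inside genes changed no call, with medians of −0.34 to −0.24. Alternatives chosen after seeing the data, keeping only members with at least 10 fragments a library, only members above 0 in both groups or only members that reach the mean with either group set to 0, each gave −0.35 and 0 called. No paired analysis was possible because the lean and obese animals are different pigs and their numbers only name them.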
